A study of Mus musculus with 20 samples.

Results

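The transcripts of 6 hormones that the liver secretes under metabolic stress were followed here across mouse livers deprived of amino acids: Fgf21, Gdf15, Inhbe, Fst, Angptl4 and Angptl8. They were taken by name as stress and metabolic hepatokines, out of 46078 genes in the count table, and all 6 had enough counts to be tested, among 14759 genes that did. The livers came from a study of weight loss under cysteine deficiency. Cystathionine γ-lyase, the product of Cse (gene symbol Cth), releases cysteine from cystathionine at the end of transsulfuration, and mice without it have to take cysteine from food.

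Livers of 20 male mice were compared in 6 groups, each liver giving 1 library of poly(A) RNA. Mice carrying 1 working Cse allele, Cse+/-, received the control diet (n = 2, libraries av21 and av22), a diet without cysteine (no-Cys, n = 4, av01 to av04) or a diet without tryptophan (no-Trp, n = 3, av17, av19 and av20). Cse-/- mice received the no-Cys diet (n = 4, av05 to av08), the no-Trp diet (n = 3, av14 to av16) or the no-Trp diet with BSO (no-Trp+BSO, n = 4, av09 to av12). BSO (L-buthionine sulfoximine) blocks γ-glutamyl cysteine synthase and thereby glutathione synthesis. Every group, controls included, had been calorie restricted for 3 days on the control diet and was then kept for 2 days on its restricted diet. The mice were at least 9 weeks old, on a mixed 129/C57BL/6 background, and the Cse knockout is a germline one, present in all tissues. The sample labels call the control genotype WT, whereas the study's list of mice, which ties libraries to groups, calls it heterozygous. No Cse-/- livers on the control diet and no Cse+/- livers on BSO are among these 20, so that the genotype effect on the control diet and the effect of BSO in Cse+/- mice were not analysed here.

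FGF21 is a hormone of the fasted or amino-acid-starved liver that acts on fat and brain through FGF receptors and the co-receptor β-klotho. GDF15 is a stress cytokine that lowers food intake through GFRAL in the hindbrain. The genes for both are classic targets of the integrated stress response (ISR), in which lack of an amino acid activates the kinase GCN2, eIF2α is phosphorylated and the transcription factor ATF4 is translated. Inhbe encodes the subunit of activin E, a liver-derived ligand of the activin family that restrains lipolysis in fat, and Fst encodes follistatin, a secreted protein that binds and neutralizes activins. ANGPTL4 and ANGPTL8 act on lipoprotein lipase, the enzyme that clears triglyceride from blood: ANGPTL4 inhibits it during fasting, and ANGPTL8, which is made after feeding, takes part in its inhibition in the fed state.

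ATF4 acts at composite elements that join a C/EBP and an ATF half-site, and the regions before the start sites were read for such a sequence. RefSeq windows on GRCm38.p6, from 250 bases before to 50 bases after each start, were found for 4 of the 6 genes. Fst and Angptl4 were not matched. The letters TGATGNAA were present, on either strand, in the windows of Fgf21, Angptl8 and Inhbe, each time as TGATGCAA, and in neither of the 2 windows of Gdf15. TGATGNAA was in 3.97% and the exact TGATGCAA in 0.89% of all 32851 windows. The 3 stretches are shown because they carry the same 8 letters in genes that behaved differently. Each is written so that the element, in capitals, reads TGATGCAA, which is the strand of the gene for Angptl8 and the opposite strand for Fgf21 and Inhbe.
Fgf21: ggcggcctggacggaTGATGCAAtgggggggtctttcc
Angptl8: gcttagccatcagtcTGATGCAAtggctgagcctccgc
Inhbe: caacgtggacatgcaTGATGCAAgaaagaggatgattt
The element of Fgf21 lay at positions -139 to -132 from the start site (chr7:45615622-45615629), that of Angptl8 at -130 to -123 (chr9:21835380-21835387) and that of Inhbe at -181 to -174 (chr10:127352022-127352029). The longer annotation of Inhbe begins upstream of the RefSeq start, so that its element falls inside the annotated gene.

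The 160 bases before the Fgf21 start (chr7:45615491-45615650, minus strand) are given on the strand of the gene because Fgf21 changed most. The capitals mark, in order, the composite element (here TTGCATCA), an E-box (CACGTG) and a TATA box (TATAAA), the last at positions -28 to -23.
Fgf21 upstream: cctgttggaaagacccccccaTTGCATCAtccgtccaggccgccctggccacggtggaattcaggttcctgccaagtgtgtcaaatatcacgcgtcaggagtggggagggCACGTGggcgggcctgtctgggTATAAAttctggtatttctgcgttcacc
CACGTG was in 7.15% and TATAAA in 13.62% of all windows. CACGTG was also in 1 window of Gdf15 (chr8:70632173-70632178), and the core of the antioxidant response element, TGACNNNGC, present in 12.39% of all windows, was in none of the windows of these 4 genes. These matches are letters in a window and say nothing of binding.

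Libraries held 11785740 to 57986121 counts on genes. Cse was at 88.4 to 332 CPM (counts scaled to a common library total) in the Cse+/- livers and at 6.37 to 14.4 CPM in the Cse-/- livers, so that no library went against its label. The 6 hepatocyte markers (Alb, Ttr, Apoa1, Serpina1a, Cps1, Tat) were abundant in every library, at summed levels of 40150 to 110900 CPM. Their sum was lower in the Cse-/- no-Cys livers (40150 to 66790 CPM) than in the Cse+/- no-Cys livers (84430 to 108600 CPM). So were the sums of 6 cholangiocyte genes (16.4 to 28.8 against 46.1 to 58.0 CPM, mainly Spp1), of 6 red cell genes (69.1 to 114 against 201 to 406 CPM), of 6 stellate cell genes (205.4 to 244.4 against 248.9 to 289.0 CPM) and, at low levels, of 6 lymphocyte genes (1.18 to 1.80 against 1.89 to 3.67 CPM). The 6 muscle genes summed to at most 0.159 CPM. The 6 adipose genes summed to 3.97 to 7.54 CPM in Cse+/- no-Cys and up to 23.1 CPM in Cse-/- no-Trp livers, and 1 Cse+/- no-Trp liver stood out at 45.4 CPM, with Cfd and Adipoq reaching 26.3 and 2.91 CPM, while Lep had no count in any liver. Over all genes, av08 differed from the other 3 Cse-/- no-Cys livers by a chi-square per gene of 43.3 to 48.9, where these 3 differed from each other by 9.60 to 16.3. Pairs of replicates in all groups ranged from 9.60 to 64.2, so that av08 stood apart within its group but not beyond the spread seen in other groups. In bulk tissue, fewer cells of a type and less RNA per cell cannot be told apart, and the part of these shifts in the results below was not tested.

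Per kilobase of merged exon, the mean level over the 20 libraries was highest for Angptl4 (63.4 CPM per kb) and Angptl8 (40.2), followed by Inhbe (9.30), Fgf21 (9.28), Gdf15 (3.04) and Fst (0.284). The spread between libraries ran in another order. From the lowest to the highest library, Fgf21 ranged 122-fold, Fst 35.6-fold, Gdf15 12.1-fold, Angptl8 7.91-fold, Inhbe 2.75-fold and Angptl4 2.36-fold. The lowest Fst value, in av08, rested on 1 count and the lowest Fgf21 value, in av01, on 4 counts, and without these libraries the ranges were 13.1-fold for Fst and 67.3-fold for Fgf21. The most abundant of these hormones at the RNA level were thus not the ones that varied most.

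**Figure D1:**
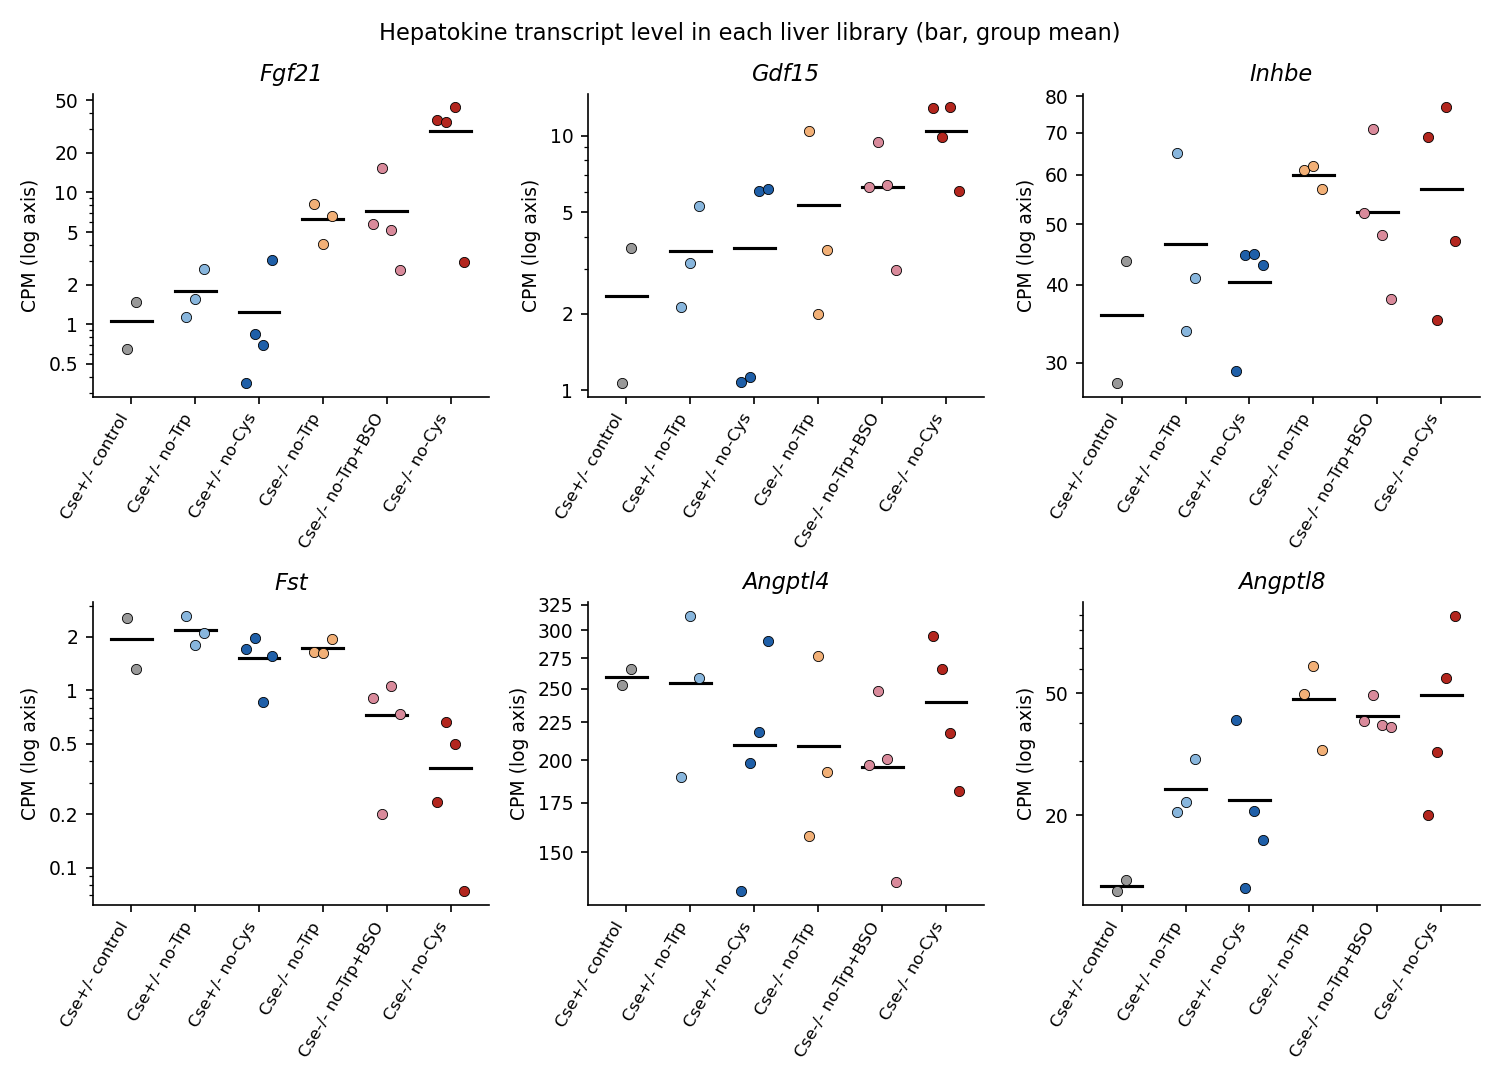
Level of each hepatokine in each of the 20 livers, as CPM scaled by TMM factors on a log axis, by group. Points are libraries and bars are group means. Fgf21 was at 34.2 to 44.1 CPM in 3 of 4 Cse-/- no-Cys livers and at 2.95 CPM in the other, and Fst was lowest in the same group.

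Which hepatokines differ between Cse-/- and Cse+/- livers on the no-Cys diet was asked first. Without Cse-/- livers on the control diet, a response to lack of cysteine cannot be told apart from an effect of genotype itself. Of the 6 genes, 3 passed the threshold, an adjusted p of 0.05 over all genes tested: Fgf21 and Angptl8 were higher and Fst was lower in Cse-/- livers. Gdf15 was close to the threshold, and Inhbe and Angptl4 did not pass. Of all genes, 23.8% were called in this comparison, so that a call here is common.

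Fgf21 (ENSMUSG00000030827, chr7:45613886-45615490, minus strand) was at 0.361, 0.847, 0.700 and 3.04 CPM in the Cse+/- no-Cys livers av01 to av04. In the Cse-/- no-Cys livers it was at 35.2, 34.2, 44.1 and 2.95 CPM in av05 to av08. The first 3 of these were above every other liver compared here, whereas av08 was within the range of Cse+/- livers. The difference was 4.50 ± 0.72 (log2 fold change ± SE, 22.7-fold; adjusted p = 0.000204), and it was called without each library in turn, at 4.23 to 5.47. The highest of these was the fit without av04, the Cse+/- no-Cys liver with the most Fgf21.

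Gdf15 (ENSMUSG00000038508, chr8:70629393-70632456, minus strand) was at 1.08, 1.13, 6.07 and 6.16 CPM in av01 to av04. It was at 12.9, 9.90, 12.9 and 6.05 CPM in av05 to av08. The Cse+/- livers thus fell into a low and a high pair, and av08 lay just under the high pair. The difference was 1.52 ± 0.55 (2.87-fold; adjusted p = 0.05003). It was called without av03, without av04 and without av08 (adjusted p of 0.0348 to 0.0376) and with the alternatives without a filter on low counts and with only these groups in the fit. It was not called by DESeq2 (adjusted p = 0.0639), with RLE factors (adjusted p = 0.0501) or without av01, av02, av05, av06 or av07 (adjusted p of 0.0774 to 0.142), and the change was lowest, at 1.21, without av02.

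Angptl8 (ENSMUSG00000047822, chr9:21835510-21837347, plus strand) lies within Dock6, which is read from the other strand, and shares no exon base with it. It was at 41.0, 11.6, 20.6 and 16.6 CPM in av01 to av04 and at 20.01, 32.2, 56.2 and 89.4 CPM in av05 to av08. The groups overlapped. The highest Angptl8 of all 20 livers was in av08, the Cse-/- no-Cys liver with low Fgf21. The difference of 1.15 ± 0.37 (2.22-fold; adjusted p = 0.0303) rested on single libraries: the call was lost without av02, av03, av04, av07 or av08 (adjusted p of 0.0647 to 0.145), and without av08 the change was 0.70 ± 0.34. Without av01, the highest Cse+/- liver, it was 1.60.

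Fst (ENSMUSG00000021765, chr13:114452290-114458951, minus strand) shares 115 exon bases with Gm47040 on the other strand, and the sources used here do not state whether counting used the strand. It was at 1.71, 1.98, 0.855 and 1.56 CPM in av01 to av04 and at 0.236, 0.660, 0.497 and 0.0738 CPM in av05 to av08. The groups did not overlap. These are low levels, of 11 to 28 counts against 1 to 9 counts per library, with the single count in av08. The difference was -2.04 ± 0.46 on the log2 scale (adjusted p = 0.00328), and it was called without each library in turn, at -2.44 to -1.74. The summed hepatocyte, cholangiocyte, red cell, stellate cell and lymphocyte markers, given above, also did not overlap between these groups, and their part in the Fst result was not tested.

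Inhbe (ENSMUSG00000047492, chr10:127348857-127354411, minus strand) was at 29.1, 44.7, 44.9 and 43.0 CPM in av01 to av04 and at 68.9, 35.1, 76.8 and 46.9 CPM in av05 to av08. Of the Cse-/- livers, 3 were above all Cse+/- livers of this diet and 1 was not. The difference was 0.50 ± 0.24 (adjusted p = 0.146). Angptl4 (ENSMUSG00000002289, chr17:33773750-33781830, minus strand) was at 133, 199, 218 and 290 CPM in av01 to av04 and at 295, 266, 218 and 182 CPM in av05 to av08. Its groups overlapped almost fully, with a difference of 0.19 ± 0.23 (adjusted p = 0.576).

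**Figure D2:**
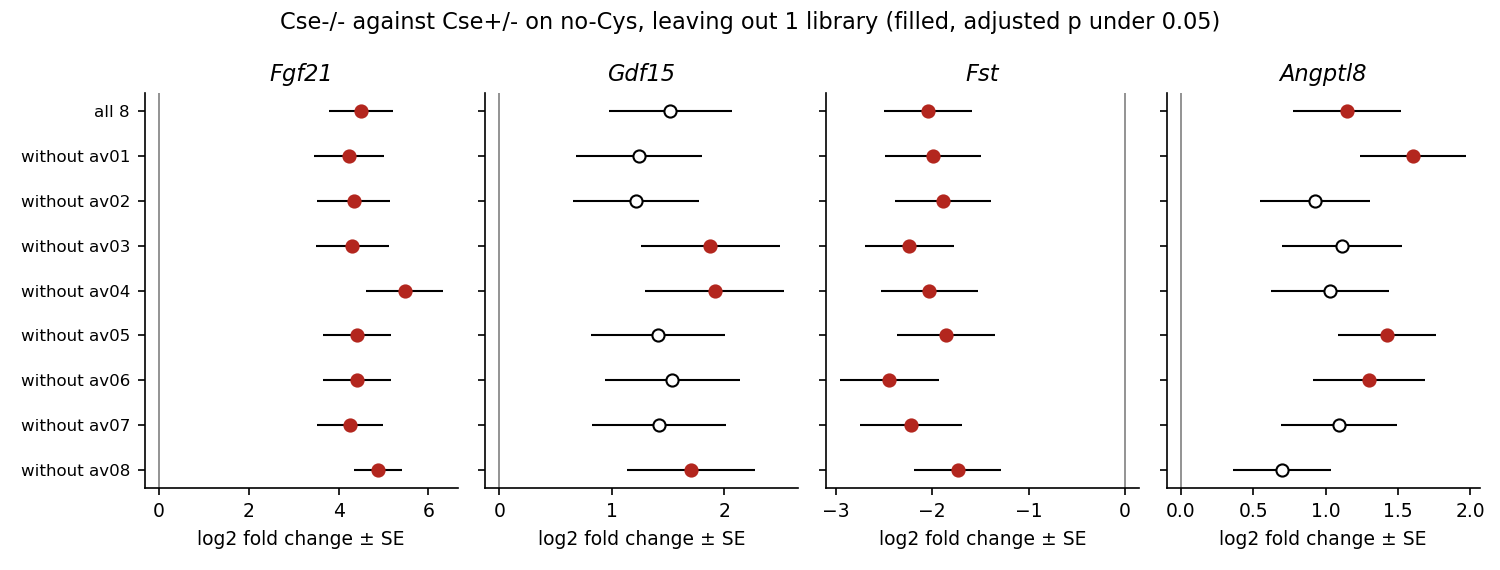
Log2 fold change ± SE of 4 hepatokines, Cse-/- against Cse+/- livers on the no-Cys diet, with all 8 libraries and without each in turn (edgeR; filled points have an adjusted p under 0.05). Fgf21 and Fst were called in every fit, Angptl8 in 3 of the 8 fits without a library and Gdf15 in 3 of 8.

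The study used a tryptophan-free diet to set apart what is specific to lack of cysteine. Here Cse-/- livers on the no-Cys diet were compared with Cse-/- livers on the no-Trp diet. Fgf21 was higher and Fst was lower on the no-Cys diet, 2 of 6 genes, where 10.4% of all genes were called. In the no-Trp livers av14 to av16, Fgf21 was at 8.16, 4.05 and 6.59 CPM. The difference was 2.20 ± 0.64 (4.61-fold; adjusted p = 0.0341). This call was lost without av05, av06, av07, av14, av15 or av16 (adjusted p of 0.0735 to 0.0909) and kept without av08, where it was larger (2.58).

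Fst was at 1.64, 1.62 and 1.95 CPM in av14 to av16, above each of the Cse-/- no-Cys livers. The difference was -2.23 ± 0.46 (adjusted p = 0.00538), and it was called without each library in turn. The red cell sum also did not overlap between these groups (69.1 to 114 CPM on no-Cys against 119 to 184 CPM on no-Trp), the cholangiocyte sum overlapped little (16.4 to 28.8 against 27.6 to 46.2 CPM), and their part in the Fst result was not tested. Angptl8, at 49.7, 61.1 and 32.5 CPM in av14 to av16, was at a mean of 47.8 ± 14.4 CPM (SD, n = 3) against 49.4 ± 30.6 (n = 4) on the no-Cys diet, a difference of 0.05 ± 0.39 (adjusted p = 0.954). Gdf15 was at 10.4, 1.995 and 3.56 CPM, with 1 liver of 3 at the level of the no-Cys livers. Its difference was 0.95 ± 0.56 (adjusted p = 0.295). It ranged from 0.58 without av15 to 1.88 without av14 and was not called without any single library (adjusted p of 0.0972 to 0.565). Inhbe (60.9, 62.0 and 56.9 CPM) and Angptl4 (158, 277 and 193 CPM) differed by -0.07 ± 0.26 and 0.20 ± 0.25 from the no-Cys diet, and neither was called.

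Adding BSO to the no-Trp diet asks what loss of glutathione adds to lack of an amino acid. By edgeR, none of the 6 genes was called between Cse-/- no-Trp+BSO and Cse-/- no-Trp livers, where 0.793% of all genes were called. DESeq2 called none either. At an unadjusted p under 0.05, for which no share of all genes is given, there was 1. That 1 gene was Fst. It was at 0.907, 0.201, 1.05 and 0.737 CPM in av09 to av12, below all 3 no-Trp livers without BSO, with a difference of -1.21 ± 0.39 (adjusted p = 0.156). Fgf21 was at 5.79, 15.3, 5.19 and 2.59 CPM in av09 to av12, so that 1 liver was above and 1 below the no-Trp range. Its difference was 0.14 ± 0.63 (adjusted p = 0.957). Gdf15 was at 6.28, 9.45, 6.39 and 2.98 CPM and differed by 0.19 ± 0.56. Angptl8 was at 40.7, 49.4, 39.5 and 38.7 CPM and differed by -0.18 ± 0.38. Inhbe was at 52.1, 70.9, 48.0 and 38.0 CPM and Angptl4 at 197, 248, 201 and 137 CPM, with differences of -0.20 ± 0.26 and -0.10 ± 0.24. The livers with BSO thus overlapped those without it for each gene but Fst.

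Between the no-Cys diet and no-Trp+BSO in Cse-/- livers, edgeR and DESeq2 called none of the 6, where edgeR called 2.75% of all genes. At an unadjusted p under 0.05, for which no share of all genes is given, there were 2 (Fgf21 and Fst). Fgf21 was higher on the no-Cys diet by 2.06 ± 0.58 (adjusted p = 0.0577). Without av08 the difference was 2.44 (adjusted p = 0.00249), and without av10, the no-Trp+BSO liver with the highest Fgf21, it was 2.70 (adjusted p = 0.0347). Without each of the other 6 libraries it was 1.77 to 1.97 and was not called (adjusted p of 0.1375 to 0.1551). Fst differed by -1.03 ± 0.47 (adjusted p = 0.229). Gdf15 differed by 0.76 ± 0.51 (adjusted p = 0.424), Inhbe by 0.13 ± 0.24, Angptl4 by 0.30 ± 0.23 and Angptl8 by 0.23 ± 0.36. The groups overlapped for all 6 genes.

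**Figure D3:**
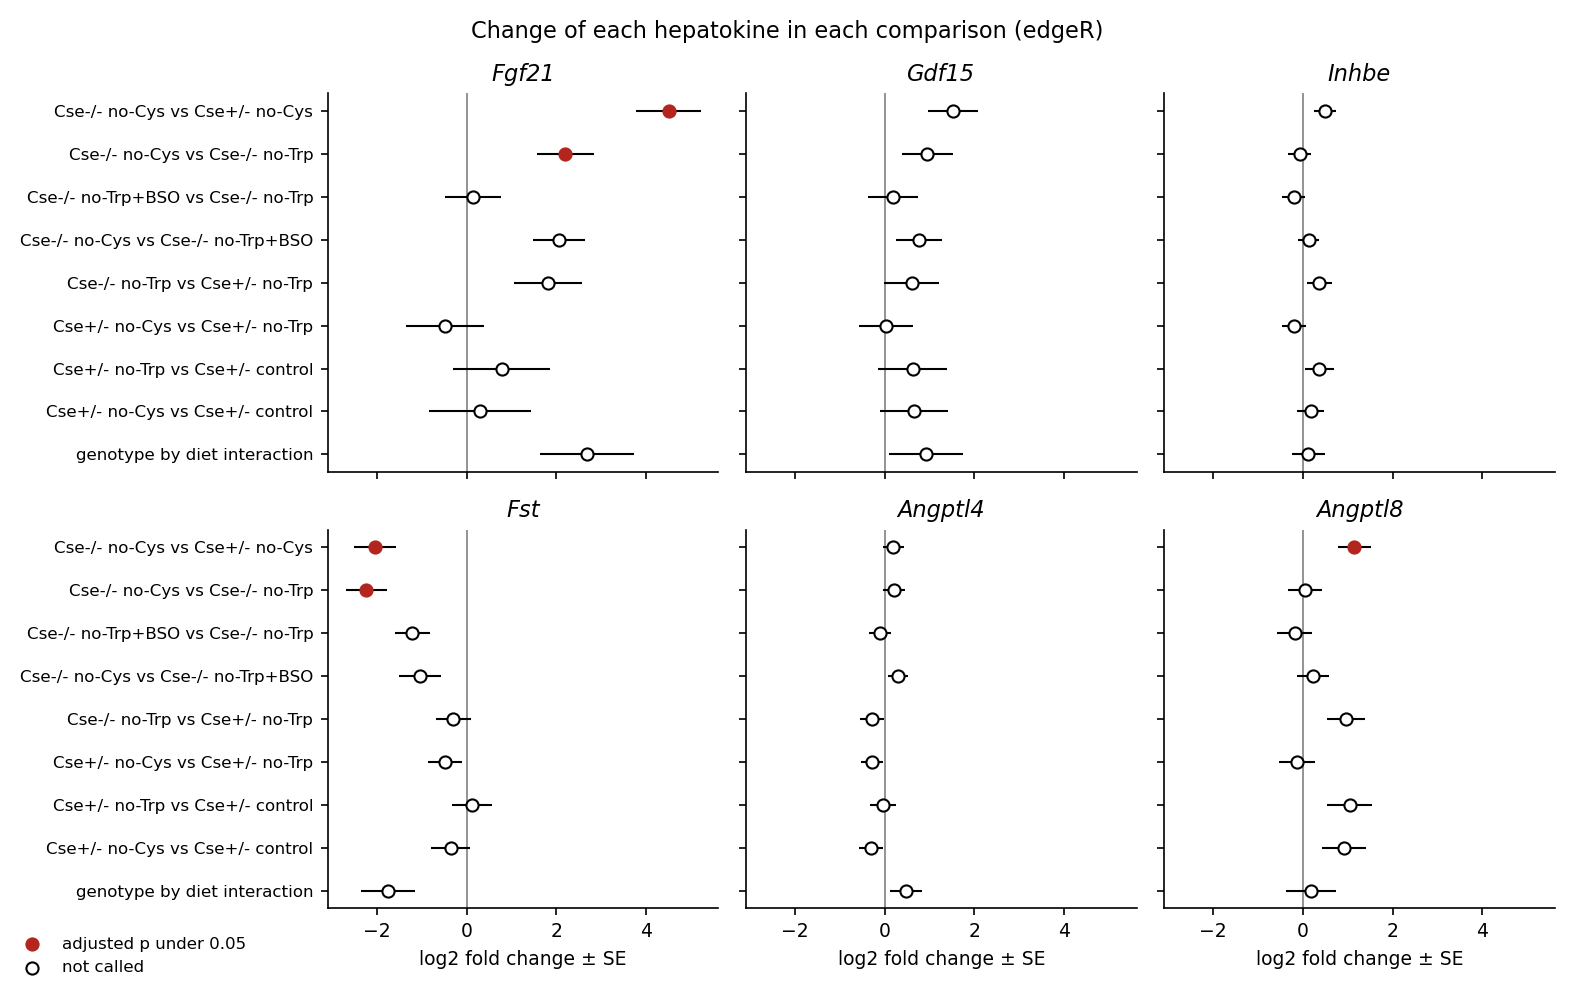
Log2 fold change ± SE of each hepatokine in each of the 9 comparisons, first group minus second (edgeR; filled points have an adjusted p under 0.05). The calls were Fgf21, Fst and Angptl8 between genotypes on the no-Cys diet, and Fgf21 and Fst between the no-Cys and no-Trp diets in Cse-/- livers.

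Genotype was also compared on the no-Trp diet, where Cse-/- and Cse+/- mice both lacked an amino acid that neither can make. By edgeR none of the 6 was called, where 2.64% of all genes were called, and DESeq2 called none either. At an unadjusted p under 0.05, for which no share of all genes is given, there were 2. Those 2 were Fgf21 and Angptl8, and neither overlapped between the groups. Listed genes that were not called, such as Lipc and Ppara, did not overlap here either, and the share over all genes was not computed. Summed hepatocyte (63080 to 69850 against 73290 to 84070 CPM) and cholangiocyte markers (27.6 to 46.2 against 48.25 to 62.4) also did not overlap. Nor did red cell (119 to 184 against 211 to 258) and neutrophil markers (0.436 to 1.21 against 1.93 to 3.70). The other marker sums overlapped, and the part of these shifts was not tested. Fgf21 was at 1.14, 1.56 and 2.62 CPM in the Cse+/- livers av17, av19 and av20, below the 4.05 to 8.16 CPM of the Cse-/- livers. The difference was 1.82 ± 0.75 (3.53-fold; adjusted p = 0.198). Angptl8 was at 20.5, 22.0 and 30.6 CPM in the Cse+/- livers, below the 32.5 to 61.1 CPM of the Cse-/- livers, with a difference of 0.97 ± 0.42 (adjusted p = 0.218). Gdf15 differed by 0.60 ± 0.61, Inhbe by 0.37 ± 0.28, Fst by -0.29 ± 0.39 and Angptl4 by -0.28 ± 0.26.

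Whether the genotype difference was larger on the no-Cys than on the no-Trp diet was tested as an interaction over the 14 livers of these 4 groups. It was 2.69 ± 1.06 for Fgf21 (adjusted p = 0.159) and -1.75 ± 0.61 for Fst (adjusted p = 0.108), and no gene of the 6 was called by edgeR. Of all genes, 4.36% were called by edgeR, and DESeq2 called 1 of the 6, Fst (adjusted p = 0.0463). At an unadjusted p under 0.05 by edgeR, for which no share of all genes is given, there were 2 of the 6. The interaction of Fgf21 was called in 1 of 14 fits without a library, that without av08 (3.06, adjusted p = 0.0221). In the other 13 it ran from 2.34 without av20 to 3.66 without av04, with adjusted p of 0.0850 to 0.289. For Angptl8 it was 0.18 ± 0.55 (adjusted p = 0.905), with genotype differences of 1.15 on no-Cys and 0.97 on no-Trp. For Gdf15, Inhbe and Angptl4 it was 0.92 ± 0.82, 0.12 ± 0.37 and 0.48 ± 0.35.

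Diet alone was compared in Cse+/- livers, which kept 1 working Cse allele. Between no-Cys and no-Trp, edgeR and DESeq2 called none of the 6, where edgeR called 8.04% of all genes. None of the 6 had an unadjusted p under 0.05. The changes ran from -0.48 for Fst and Fgf21 to 0.03 for Gdf15. Against the 2 Cse+/- control livers, edgeR and DESeq2 called none of the 6 on either diet. Of all genes, edgeR called 2.18% on the no-Cys diet and 0.0474% on the no-Trp diet. At an unadjusted p under 0.05, for which no share of all genes is given, there was none on no-Cys and 1 on no-Trp. That 1 was Angptl8. It was at 11.3 and 12.3 CPM in the control livers av21 and av22, below every no-Trp liver, with a difference of 1.05 ± 0.50 (adjusted p = 0.538). On the no-Cys diet Angptl8 exceeded the control livers by 0.92 ± 0.49 (adjusted p = 0.353). Fgf21 in the control livers was at 0.654 and 1.46 CPM, Gdf15 at 1.07 and 3.62, Inhbe at 27.9 and 43.7, Fst at 2.56 and 1.32, and Angptl4 at 253 and 266 CPM. With 2 control livers, the SE of the Fgf21 changes against them was 1.08 and 1.13 on the log2 scale.

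In the order of group means, most neighbouring groups overlapped (values are mean ± SD). Fgf21 was ordered Cse-/- no-Cys (29.1 ± 18.0 CPM), Cse-/- no-Trp+BSO (7.23 ± 5.58), Cse-/- no-Trp (6.27 ± 2.07), Cse+/- no-Trp (1.77 ± 0.76), Cse+/- no-Cys (1.24 ± 1.22) and Cse+/- control (1.06 ± 0.57), and of these neighbours only Cse-/- no-Trp and Cse+/- no-Trp did not overlap. Angptl8 was ordered Cse-/- no-Cys, Cse-/- no-Trp, Cse-/- no-Trp+BSO (42.1 ± 4.98 CPM), Cse+/- no-Trp (24.4 ± 5.43), Cse+/- no-Cys (22.4 ± 12.9) and Cse+/- control (11.8 ± 0.67), again with a gap only between the genotypes. For Gdf15 the 3 Cse-/- groups also came first (10.4 ± 3.24, 6.27 ± 2.64 and 5.32 ± 4.47 CPM), but each neighbour overlapped the next. Fst was highest in Cse+/- no-Trp (2.17 ± 0.42 CPM) and lowest in Cse-/- no-Trp+BSO (0.724 ± 0.372) and Cse-/- no-Cys (0.367 ± 0.262), but Cse-/- no-Trp lay at 1.74 CPM, between Cse+/- control and Cse+/- no-Cys, the latter at 1.53 CPM, and each neighbour overlapped the next. The pools of all diets are unlike, with no-Trp+BSO only among Cse-/- and the control diet only among Cse+/- livers. Genotype and diet thus cannot be told apart in the counts that follow, and the share over all genes was not computed. Over all diets, 9 of 11 Cse-/- livers had more Fgf21 than every Cse+/- liver, 7 of 11 more Gdf15, 5 of 11 more Angptl8 and 3 of 11 more Inhbe. For Fst, 6 of 11 were below every Cse+/- liver. Angptl4 separated no Cse-/- liver from the Cse+/- livers in either direction.

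The ISR was followed by 10 of its usual targets, 9 of which were tested; Slc7a11, the cystine transporter, had too few counts. Between genotypes on the no-Cys diet, 8 rose and 1 fell, where 23.8% of all genes were called, with a median change of 1.94 against -0.01 over all genes tested. The 1 that fell was Cth, the deleted gene itself. Psat1 and Asns, which make serine and asparagine, rose by 5.83 ± 0.40 and 4.47 ± 0.51 (adjusted p = 3.29e-08 and 7.77e-06), and Nupr1 and Mthfd2 by 3.78 ± 0.63 and 3.71 ± 0.39. A promoter window was found for 9 of the 10 targets, and 5 of these held TGATGNAA (Asns, Chac1, Nupr1, Slc7a11 and Vldlr). Of the genes tested that had a window, 2.86% held it, as did 3.61% of those called higher and 3.33% of those called lower between genotypes on the no-Cys diet. The exact TGATGCAA was in 84 of 10444 tested genes with a window, in 15 of 1331 called higher (1.13%) and in 6 of 1323 called lower (0.45%), small counts that were not tested against each other. The looser TGATGNAA was found for 2 of the 15 regulators described below that had a window and for 2 of 11 other hepatokines. It was found for none of the receptor, activin, lipase and PPARα lists. Against the no-Trp and no-Trp+BSO diets in Cse-/- livers, 4 of 9 were higher on the no-Cys diet in each case, against 10.4% and 2.75% of all genes called: Asns, Psat1, Mthfd2 and Slc3a2. Between genotypes on the no-Trp diet, Asns (2.96 ± 0.58) and Psat1 (2.33 ± 0.38) rose and Cth fell, 3 of 9, where 2.64% of all genes were called. Not all targets had the same sign there: Chac1, a glutathione-degrading enzyme, was at 4.96 ± 1.42 CPM in Cse-/- and 12.6 ± 1.82 CPM in Cse+/- livers without overlap (-1.35 ± 0.50, adjusted p = 0.156), and Slc3a2 differed by -0.33 ± 0.20. The list was chosen with earlier results of these data known and gives no independent evidence of a direction.

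The mean of 8 ISR targets, each centred over the 20 libraries on the log2 scale, was 1.71, 1.71 and 2.26 in av05, av06 and av07 and 0.94 in av08. Cth, the deleted gene itself, was left out of this mean, a choice made after the values were seen. The mean was 0.06 to 0.72 in the no-Trp+BSO livers, 0.11 to 0.24 in Cse-/- no-Trp, -0.84 to -0.44 in Cse+/- no-Trp, -1.37 to -1.06 in Cse+/- no-Cys and -1.25 to -1.22 in the control livers. So av08 had the lowest ISR target level of its group but more than any liver outside it, while its Fgf21 was above that of 1 of the other 10 Cse-/- livers. Gdf15 was likewise lowest of its group in av08, whereas Angptl8 was highest there.

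**Figure D4:**
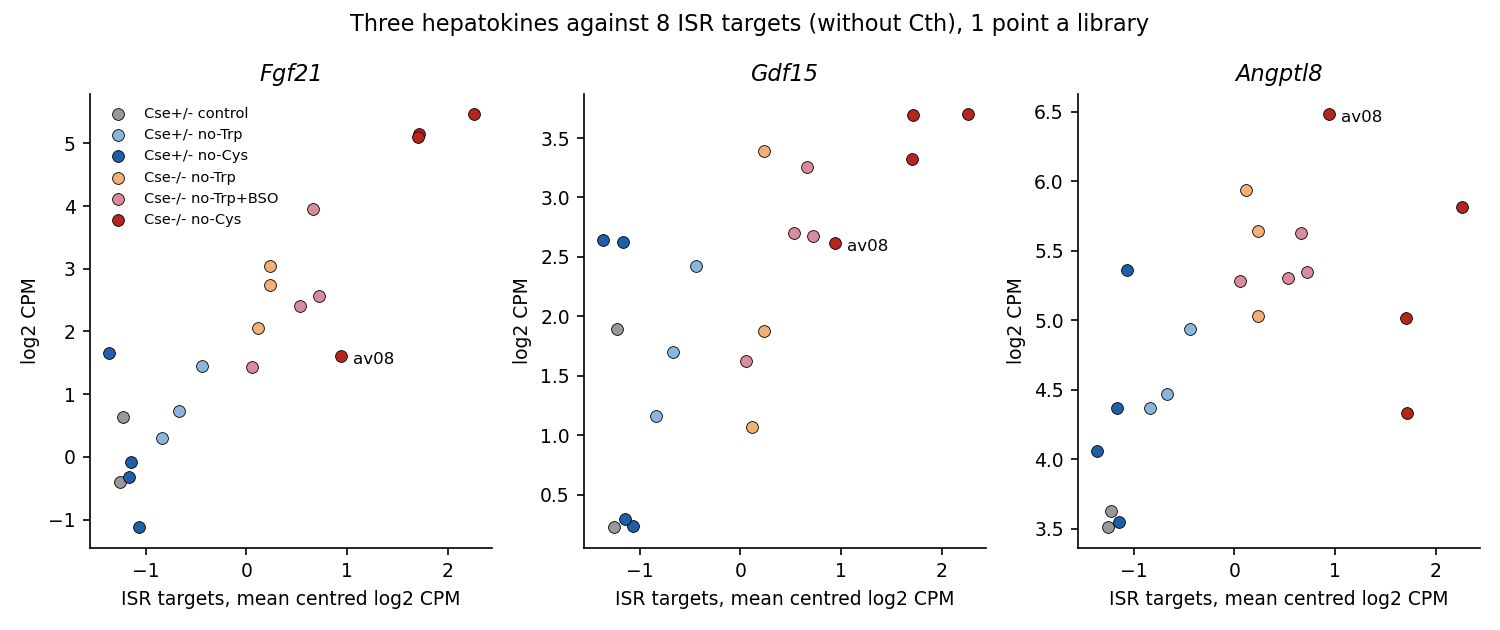
Log2 CPM of Fgf21, Gdf15 and Angptl8 against the mean centred log2 CPM of 8 ISR targets, 1 point a liver, coloured by group. The Cse-/- no-Cys liver av08, with an ISR target level of 0.94, lay below the other livers of its group for Fgf21 and Gdf15 and above them for Angptl8.

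By the closeness of centred log2 CPM over the 20 livers, measured as the root-mean-square difference, the genes most like Fgf21 were Nupr1 (0.95), Extl1 (1.00) and Mthfd2 (1.00), where the spread of Fgf21 itself was 1.87. Those most like Gdf15 were Hist1h1d (0.75), Atf5 (0.76) and Mfsd12 (0.78; own spread 1.09). For Fst they were Asap3 (0.60), Kcnt2 (0.65) and Slco1a1 (0.66; own spread 1.08), and for Angptl8 6430550D23Rik, Tceal8 and Cyp2c38 (0.52, 0.52 and 0.54; own spread 0.82). Inhbe and Angptl4 varied too little for this. Among the 6 themselves, the least alike were Fgf21 and Fst (2.62), and the most alike Inhbe and Angptl4 (0.52), the 2 that varied least.

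Of 16 genes known to regulate hepatokines, 2 rose and 3 fell between genotypes on the no-Cys diet, a share of 31.2% where 23.8% of all genes were called, so that the count is near the background. Atf5 and Trib3, both ISR genes, rose by 1.95 ± 0.23 and 1.63 ± 0.20 (adjusted p = 1.17e-05 and 1.8e-05). Srebf1, a driver of lipid synthesis, fell by 1.69 on the log2 scale (adjusted p = 0.000225), and Nfe2l2, which encodes NRF2, and the glucocorticoid receptor gene Nr3c1 fell by 0.41 and 0.38. Nfe2l2 was itself higher in Cse+/- no-Cys than in control livers (76.6 ± 9.34 against 48.2 ± 5.63 CPM, 0.67 ± 0.15, adjusted p = 0.0202), and its level in Cse-/- no-Cys livers, 57.6 ± 5.76 CPM, lay between these. The transcripts of Atf4 (0.41 ± 0.20), Ddit3 (0.46 ± 0.19), Ppara (0.05 ± 0.18), Creb3l3 (0.08 ± 0.11) and Mlxipl (-0.38 ± 0.16) were not called. ATF4 is controlled in its translation, which these data do not measure. Of 9 targets of PPARα, the fasting regulator that also acts on Fgf21 and Angptl4, none was called by edgeR's test, with a median of 0.41. The smallest adjusted p among them was that of Cpt1a, which brings fatty acids into mitochondria (0.47 ± 0.17, adjusted p = 0.0522). Between genotypes on the no-Trp diet, 1 of the 16 regulators was called, where 2.64% of all genes were called. It was Trib3, higher by 2.12 ± 0.24 (adjusted p = 9.49e-05).

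Of the receptor genes for FGF21 and GDF15, 5 of 7 were tested, and 1 of the 5, Fgfr4, fell between genotypes on the no-Cys diet (-0.70 ± 0.19, adjusted p = 0.0103), no larger a share than the 23.8% of all genes. Klb, which encodes β-klotho, was at 31.4 ± 6.54 against 27.0 ± 5.69 CPM (0.22 ± 0.16, adjusted p = 0.332). Gfral had no count in any liver. On the no-Cys diet Cse-/- livers had less Fgfr3 than on the no-Trp diet (-0.71 ± 0.21, adjusted p = 0.0376).

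In the activin system, 6 of 12 tested genes fell between genotypes on the no-Cys diet and none rose, with a median of -0.47 and 23.8% of all genes called. The ligand subunits Inhbc and Inhba fell by 0.88 and 0.98 on the log2 scale (adjusted p = 0.000121 and 0.00865), Fstl1, a follistatin-like protein, by 0.88, and the receptor genes Acvr2b, Tgfbr3 and Acvr1 by 0.83, 0.78 and 0.51. Inhbe, with 0.50 ± 0.24 and not called, had the other sign from its neighbour in kind Inhbc, at 31.6 ± 2.63 CPM in Cse-/- and 58.1 ± 10.1 CPM in Cse+/- livers. Inhbc was also lower on no-Cys than on no-Trp in Cse-/- livers (-0.79 ± 0.14, adjusted p = 0.00187) and in Cse+/- livers (-0.49 ± 0.14, adjusted p = 0.0364), and lower in Cse-/- than in Cse+/- livers on no-Trp (-0.58 ± 0.15, adjusted p = 0.0431). Inhbb was higher on no-Cys than on no-Trp in Cse-/- livers (1.30 ± 0.30, adjusted p = 0.0109).

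Of 8 genes around lipoprotein lipase, 3 fell between genotypes on the no-Cys diet, a share of 37.5% against 23.8% of all genes, with a median of -0.30 over the 8. Lipc, the hepatic lipase, fell by 1.03, Apoc3, an inhibitor of triglyceride clearance, by 0.83 and Lpl itself by 0.83 on the log2 scale (adjusted p = 0.000238, 0.000455 and 0.0388). Lpl was at 13.6 ± 7.41 CPM in Cse-/- no-Cys, 24.1 ± 1.46 CPM in Cse+/- no-Cys and 13.7 ± 1.15 CPM in control livers, the last 2 differing by 0.82 ± 0.35 (adjusted p = 0.244). Lipc was also lower on no-Cys than on no-Trp (-1.02 ± 0.18) and than on no-Trp+BSO (-0.99 ± 0.17) in Cse-/- livers.

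Of 15 other hepatokines, 2 rose and 5 fell between genotypes on the no-Cys diet, a share of 46.7% against 23.8% of all genes, with a median of -0.18. Igfbp1, a starvation-induced binding protein of insulin-like growth factors, was higher in Cse-/- livers by 1.26 ± 0.36 (adjusted p = 0.0143), and Ahsg, which encodes fetuin-A, by 0.44 ± 0.10. Igfbp1 was at 319 ± 166 CPM in Cse-/- no-Cys, 133 ± 36.2 CPM in Cse+/- no-Cys and 574 ± 413 CPM in control livers, and Cse+/- no-Cys livers were also below the controls (-2.11 ± 0.41, adjusted p = 0.0117). Enho, which encodes adropin, fell by 2.76 on the log2 scale, from 16.6 ± 1.66 to 2.44 ± 0.19 CPM (adjusted p = 1.87e-05), and Orm1, an acute-phase protein, fell by 1.16. Igfbp2, Fgf1 and Serpinf1 fell by 0.64, 0.49 and 0.32. Enho was also lower in Cse-/- than in Cse+/- livers on the no-Trp diet (-2.19 ± 0.38, adjusted p = 0.00457). Among these 15 and the 6 hepatokines followed here, Fgf21 had the largest change up and Enho the largest change down between genotypes on the no-Cys diet.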

How the data were processed

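The authors isolated poly(A) RNA from liver, made paired-end libraries, aligned reads to GRCm38 with HISAT2 2.1.0 and deposited raw counts per gene from HTSeq 0.11.0 (versions from the study's methods and the submitters' processing notes). Not given in the sources used here are the annotation release and the strand setting. Of the columns of the deposited count table, 20 entered the analysis and 1 was left out, as no group is listed for it. Replicates are separate mice.

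Counts of 14759 genes passing filterByExpr (minimum count 10, minimum total 15) were scaled by TMM and fitted in edgeR 4.0.16 (R 4.3.3) with 1 mean per group over all 20 libraries (common dispersion 0.027). Quasi-likelihood F tests were two-sided, and p-values were adjusted by the Benjamini-Hochberg method over all genes tested, with a threshold of 0.05. SE was taken as the size of the log2 fold change over the root of F. Levels are CPM, and the fit was tested on simulated data. Log2 CPM used a prior count of 2. As alternatives, RLE factors, no filter, DESeq2 1.42.0 (Wald test), a fit of the compared groups only and leaving out each library were tried. Genes and sequences were matched by symbol to GENCODE (GRCm38) and RefSeq (GRCm38.p6). The genes, lists and markers, and the rule for naming (all 6 hepatokines, the called list members with the largest change, and receptors, partners and regulators), were chosen with earlier results of these data known. Of the listed genes, 1 of the lipase list and 1 of the PPARα targets are not reported here, and counts and medians of those lists are over the rest.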

Additional observations from a re-analysis of the deposited data

Results flagged for a closer look

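Among 18 sets of 4 livers (the 6 genes in each of the 3 groups of that size), 1 held a liver far from the others by Dixon's ratio of gap to range: Inhbe in the Cse+/- no-Cys liver av01, at 29.1 CPM, where the other 3 were at 43.0 to 44.9 CPM (ratio 0.878). Chance alone flags about 1 in 20 such sets.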

How the results depend on the processing

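No paired analysis was possible because the columns of the count table do not carry the replicate numbers of the labels. Over the 9 comparisons and 6 genes, 624 values were recomputed under other settings: 560 kept their direction and their side of the threshold, 13 lost and 12 gained a call, and 39 changed sign. The 3 calls between genotypes on the no-Cys diet stayed 3 under DESeq2 and RLE factors. On no-Cys against no-Trp in Cse-/- livers, the 2 calls became 1 in the fit of these groups only (Fgf21, adjusted p = 0.0906) and 1 to 2 without single libraries. On no-Cys against no-Trp+BSO, 0 became 1 without the filter (Fgf21, adjusted p = 0.00126) and 0 to 1 without single libraries. Between genotypes on no-Trp, 0 became 1 without the filter (Fgf21, adjusted p = 0.0494). For the interaction, 0 became 1 with DESeq2 and 1 without the filter (Fgf21, adjusted p = 0.0265), and 0 to 1 without single libraries. Between genotypes on no-Cys, the call of Angptl8 was lost in the fit of these groups only (adjusted p = 0.0951), where Gdf15 gained one (adjusted p = 0.0476), as it did without the filter (adjusted p = 0.00482). The cause of these changes was not tested. RLE factors moved the median of all genes by at most 0.00785.

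Values that changed sign did so when 1 library was left out and were never called. The log2 fold changes ran from -0.40 to 0.31 (Angptl8) and -0.24 to 0.10 (Inhbe) for no-Cys against no-Trp in Cse-/- livers, from -0.22 to 0.50 (Angptl8) and -0.040 to 0.31 (Inhbe) for no-Cys against no-Trp+BSO, and from -0.34 to 0.98 (Gdf15) between genotypes on no-Trp. For no-Trp+BSO against no-Trp they ran from -0.50 to 0.43 (Fgf21), -0.19 to 1.11 (Gdf15), -0.27 to 0.15 (Angptl4) and -0.41 to 0.018 (Angptl8). In Cse+/- livers they ran from -0.36 to 0.42 (Gdf15), -0.38 to 0.12 (Inhbe) and -0.59 to 0.087 (Angptl8) for no-Cys against no-Trp, from -0.65 to 0.96 (Fgf21), -0.74 to 0.20 (Fst) and -0.12 to 0.53 (Inhbe) for no-Cys against control, and from -0.018 to 1.73 (Gdf15), -0.25 to 0.69 (Fst) and -0.20 to 0.15 (Angptl4) for no-Trp against control. The interaction ran from -0.18 to 0.32 (Inhbe) and -0.27 to 0.64 (Angptl8).

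Over all genes, the number called moved with the setting: 1535 to 521 for no-Cys against no-Trp in Cse-/- livers, 389 to 83 between genotypes on no-Trp, 1186 to 580 for no-Cys against no-Trp in Cse+/- livers, 643 to 375 for the interaction and 322 to 138 against control on no-Cys in fits of the compared groups only; and with DESeq2 117 to 352 for BSO, 406 to 876 for no-Cys against no-Trp+BSO, 389 to 720, 643 to 1055, 322 to 613 and, on no-Trp against control, 7 to 60. Without av08, 406 became 1027 and 643 became 1150. Fst, with as few as 1 count in a library, and groups of 2 or 3 livers limit what these comparisons detect.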
